A study of Homo sapiens with 7 samples.

Results

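The NRARP and NRG1 regions are a pair of candidate regulatory regions whose nearest protein-coding genes act in cell-to-cell signalling, NRARP in the Notch pathway and NRG1 in the ERBB pathway. Their members were the reporter constructs whose names in the tables give the region on chromosome 9 that ends at base 137293867 or the region on chromosome 8 that ends at base 32261520 (hg38). These were 32 of the 1383 constructs in 2 deposited tables, and 2 of 380 regions. Of these, 14 belonged to the NRARP region, with 7 wild-type and 7 mutant constructs, and 18 to the NRG1 region, with 10 wild-type and 8 mutant constructs.

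The study read the activity of such regions in a lentiviral massively parallel reporter assay, in which each candidate sequence drives a barcoded transcript from an integrated provirus and barcodes in RNA are counted against barcodes in genomic DNA (gDNA). The cells were C4-2B, an established human prostate cancer line of the LNCaP lineage that was derived from a bone metastasis, and all libraries came from this 1 line without a further treatment in the labels. There were 7 libraries, of which 3 were RNA, 3 were gDNA and 1 linked barcodes to sequences, and RNA and gDNA were extracted together 48 hours after transduction. Mutant constructs were compared with wild-type sequence in 1 table, and wild-type constructs with scrambled sequence in the other.

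Notch receptors are cleaved when a neighbouring cell presents a ligand, and the released intracellular domain joins the DNA-binding protein RBPJ to activate target genes. NRARP encodes a small ankyrin repeat protein that is itself a Notch target and that binds this complex and limits its activity, which makes it a negative feedback regulator. NRG1 encodes neuregulin 1, a ligand with an EGF-like domain that binds the receptor tyrosine kinases ERBB3 and ERBB4, which pair with ERBB2 and signal through the PI3K and MAPK cascades. In prostate tumours neuregulin has been described as a signal from the tumour's surroundings to ERBB3 on the cancer cells.

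The NRARP region spans 1999 bp (chr9:137291869-137293867). It is intergenic, 5764 bp from the NRARP gene (137299631 to 137302271) and 9228 bp from TOR4A on its other side. NRARP lies on the minus strand with its start site at 137302271, so the region lies past the 3′ end of the gene and 8404 bp from its start site. The NRG1 region spans 2554 bp and lies within the long NRG1 gene body (chr8:32258967-32261520, gene 31639245 to 32774046), 619722 bp from the gene's lower and 512526 bp from its upper end. Whether it falls in an exon, an intron or an untranslated region was not resolved, because the gene table used here gives gene bounds only. The names of both regions come from position and do not state that either controls its gene.

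Sites are numbered here along each region from the lower to the higher coordinate. Each is the position of 1 tested mutation, and a site's wild-type construct carries the unmutated sequence. The 7 NRARP sites were packed into 93 bp, with gaps of 1 to 32 bp between neighbours, and all 7 had both a wild-type and a mutant value. The 12 NRG1 sites were spread over 1137 bp, with gaps of 22 to 259 bp. Of these, 6 had both values, 4 had a wild-type value only and 2 a mutant value only. The estimate is taken here as a log odds ratio (natural log) that sets RNA against gDNA. Every fold of odds rests on that reading. The estimate is printed with its standard error (SE), and its direction is read from the naming of the tables. The words called higher or called lower mark an adjusted p, as the authors deposited it, of less than 0.05. The authors' model combined the 3 replicates into 1 value per construct, so the spread between replicates and the depth behind a value are unknown, and every p and SE measures the error of that model only.

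The regions were selected on their wild-type estimates against scrambled sequence, so wild-type activity is given as a description. When each region was represented by the construct of smallest p, NRARP and NRG1 ranked 6 and 8 among the called positive wild-type estimates of the authors' deposited table. RAB6A, at rank 10 with 1.21 ± 0.20, was the last of the 10 regions that had been named on that basis, and TDRD9, at rank 11 with 1.15 ± 0.10 per the authors' deposited table, was the first outside them.

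In the NRARP region 1 of the 7 wild-type constructs stood far above scrambled sequence and the other 6 lay between -0.20 and 0.34. Site 6 had the highest wild-type estimate of the region, at 1.42 ± 0.39 per the authors' deposited table, or 4.13-fold higher odds (adjusted p = 0.000778). Its neighbour 6 bp away, site 7, had 0.28 ± 0.08 per the authors' deposited table, or 1.32-fold (adjusted p = 0.00189). On the other side, 14 bp away, site 5 had 0.05 ± 0.14 per the authors' deposited table and missed the threshold (adjusted p = 0.769). The 95% intervals of the model were 0.65 to 2.19 at site 6, 0.12 to 0.44 at site 7 and -0.22 to 0.32 at site 5. The region was selected through the value of site 6, so its distance from these neighbours is a description.

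The other NRARP sites lay on both sides of 0. Site 2 was called higher at 0.34 ± 0.10 per the authors' deposited table, or 1.40-fold (adjusted p = 0.00233). Sites 3 and 4, which are 1 bp apart, had nearly equal wild-type values of -0.19 ± 0.07 and -0.20 ± 0.11 per the authors' deposited table. Site 3 was called lower and site 4 was not, with an adjusted p of 0.0147 and 0.0933 per the authors' deposited table, and the difference in call follows their errors and not their estimates. Site 1 was not called, at -0.11 ± 0.09 per the authors' deposited table (adjusted p = 0.289). In all, 3 NRARP wild-type constructs were called higher, 1 lower and 3 neither, where 34.1% of the 358 wild-type constructs of the authors' deposited table were called higher, 28.2% lower and 62.3% in either direction. The median NRARP wild-type estimate was 0.05, beside 0.01 over all wild-type constructs of the authors' deposited table.

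In the NRG1 region the wild-type constructs lay far apart, on both sides of scrambled sequence. Site 3 was the highest of the region, at 1.36 ± 0.33 per the authors' deposited table, or 3.91-fold higher odds (adjusted p = 0.000108). Site 10 was the lowest of the region, at -3.75 ± 1.08 per the authors' deposited table, which is 42.6-fold lower odds (adjusted p = 0.00140). It was the lowest called estimate among all 358 wild-type constructs of the authors' deposited table, and its SE was larger than or equal to that of 97.8% of them, with a 95% interval of -5.88 to -1.63.

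Between these extremes, the other called constructs were all higher than scrambled sequence. Sites 5 and 6, which are 47 bp apart, were called higher at 0.73 ± 0.22 and 0.46 ± 0.14 per the authors' deposited table, or 2.07- and 1.59-fold (adjusted p = 0.00215 and 0.00212). Site 8 was called higher at 0.71 ± 0.33 per the authors' deposited table, or 2.04-fold, just inside the threshold (adjusted p = 0.0485). All 4 higher calls lay at sites 3 to 8, while the wild-type constructs of sites 9, 10 and 11 all had negative estimates. Site 11, at -0.42 ± 0.20 per the authors' deposited table, lay just outside the threshold (adjusted p = 0.0560), and site 9 stood at -0.19 ± 0.19 (adjusted p = 0.379). Sites 1, 4 and 12 were positive but not called, at 0.21 ± 0.16, 0.13 ± 0.07 and 0.13 ± 0.38 per the authors' deposited table (adjusted p = 0.251, 0.102 and 0.792). In all, 4 of 10 were called higher, 1 lower and 5 neither, beside the 62.3% of wild-type constructs called per the authors' deposited table, and the NRG1 median was 0.17.

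The span from lowest to highest wild-type estimate was 5.12 in the NRG1 region, the largest of the 25 regions with 5 or more wild-type constructs with an estimate of at most 10 in size, and 1.62 in the NRARP region, rank 7 of them, where the median span of the authors' deposited table was 1.28. A span tends to grow with the number of constructs and with their error. The NRG1 region had 10 wild-type constructs with a median SE of 0.21, beside 0.11 over all wild-type constructs. Each span was widened by 1 construct. The upper ends of the spans, NRG1 site 3 and NRARP site 6, are the values through which the regions were selected. The spans and their ranks are therefore descriptions. Without site 10 the NRG1 span was 1.79, rank 5, and it still held the selected value of site 3. Without site 6 the NRARP span was 0.54, rank 25. Called constructs of both directions within 1 region were the usual case per the authors' deposited table, in 21 of those 25 regions.

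Mutants of the NRARP region, set against their own wild-type sequence, ranged from -0.19 to 0.38, and those called were higher. The mutants at sites 1, 4 and 5 were called higher, and 0 were called lower, with site 3 lower at an unadjusted p of 0.0315 per the authors' deposited table. These 3 calls of 7 compare with 56.6% of the 1025 mutants called per the authors' deposited table, 29.5% higher and 27.1% lower. Site 4 had the largest effect, at 0.38 ± 0.10 per the authors' deposited table, or 1.46-fold higher odds (adjusted p = 0.000497). Site 5 had 0.36 ± 0.12 per the authors' deposited table, or 1.44-fold (adjusted p = 0.00501), and site 1 had 0.28 ± 0.09, or 1.32-fold (adjusted p = 0.00290). The wild-type constructs of these 3 sites were the ones not called against scrambled sequence, and both tables use wild-type reads, so the values are not independent.

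The remaining NRARP mutants were not called. Site 3, whose mutation lies 1 bp from that of site 4, had -0.14 ± 0.07 per the authors' deposited table (adjusted p = 0.0550). The 95% intervals of these neighbours, -0.27 to -0.01 at site 3 and 0.18 to 0.57 at site 4, did not overlap, although their wild-type values were nearly equal. Site 6 had the highest wild-type estimate of the region against scrambled sequence. Its mutant effect was 0.08 ± 0.10 per the authors' deposited table, with an interval of -0.12 to 0.28 (adjusted p = 0.512). Site 7 had -0.19 ± 0.13 and site 2 had 0.01 ± 0.10 per the authors' deposited table (adjusted p = 0.214 and 0.948).

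By kind of change, with complementary changes pooled, the NRARP mutants called higher were both cytosine-to-adenine transversions of the region, at sites 1 and 4, and 1 of its 3 thymine-to-cytosine transitions, at site 5. Over all 74 cytosine-to-adenine transversions of the authors' deposited table, 23.0% were called higher and 32.4% lower. The span of NRARP mutant estimates, 0.57, ranked 52 among the 58 regions with 5 or more mutants with an estimate of at most 10 in size, where the median span of the authors' deposited table was 1.29. NRARP mutants had a median SE of 0.10, beside 0.12 over all mutants of the authors' deposited table.

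Mutants of the NRG1 region ranged from -1.56 to 4.13, with 3 called lower and 1 higher of 8, beside the 56.6% of all mutants called per the authors' deposited table. Site 5 was called lower at -1.56 ± 0.34 per the authors' deposited table, which is 4.74-fold lower odds than its wild-type sequence (adjusted p = 1.55e-05). Site 6 was called lower at -0.64 ± 0.13 per the authors' deposited table, or 1.90-fold (adjusted p = 1.58e-06), the smallest p of any construct of either region. Site 12 was called lower at -1.06 ± 0.44 per the authors' deposited table, or 2.88-fold (adjusted p = 0.0300), with an interval of -1.92 to -0.20. Sites 5 and 6 both held wild-type sequence called higher than scrambled, whereas the wild-type construct of site 12 was not called. Both tables use wild-type reads, so these values are not independent. The wild-type and mutant estimates had opposite signs at 6 of the 6 NRG1 sites with both values, beside 3 of 7 NRARP sites.

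The upward mutant lay at site 10, where the wild-type construct was the lowest. It reached 4.13 ± 1.14 per the authors' deposited table, or 62.1-fold higher odds (adjusted p = 0.000812), the second highest called estimate among all 1025 mutants. Its SE was larger than or equal to that of 98.6% of the mutants of the authors' deposited table and its interval ran from 1.89 to 6.36, so the size of the fold is poorly fixed. Both comparisons use the wild-type reads of site 10, so its low wild-type and high mutant values are not independent. The other 4 NRG1 mutants were not called. Sites 2 and 4 stood at -0.24 ± 0.38 and -0.16 ± 0.17 per the authors' deposited table (adjusted p = 0.620 and 0.428), and sites 7 and 9 at -0.04 ± 0.20 and 0.02 ± 0.12 (adjusted p = 0.908 and 0.937). Of these, the interval of site 9, -0.22 to 0.26, was the narrowest, and that of site 2, -0.99 to 0.51, the widest.

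The kinds of change divided the NRG1 mutants, as seen after their values were known. Both cytosine-guanine exchanges, at sites 5 and 12, and the deletion at site 6 were called lower. Of the 5 cytosine-to-thymine transitions 1 was called higher, at site 10, and 4 were not called. Among mutants of the authors' deposited table, 31.2% of 77 cytosine-guanine exchanges and 29.9% of 97 deletions were called lower, and 30.8% of 208 cytosine-to-thymine transitions were called higher. The 1 cytosine-guanine exchange of the NRARP region, at site 2, was not called. The span of NRG1 mutant estimates, 5.68, was the largest of the 58 regions, and 1.57, rank 24, without site 10. NRG1 mutants had a median SE of 0.27, beside 0.10 for NRARP mutants.

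Where a site had both values, their sum gives the mutant's log odds ratio against scrambled sequence, on the assumption that both tables used the same wild-type construct. The error of the sum is at most that of independent estimates and can be smaller, by as much as the shared wild-type reads allow, and no test was made. At NRG1 site 10 the mutant then stood at 0.38, against -3.75 ± 1.08 for the wild-type construct. Since the SE of that sum lay anywhere from 0.35 to 1.57, the values do not fix where the site 10 mutant stood relative to scrambled sequence. At NRG1 site 5 the mutant stood at -0.83 (SE at most 0.40) and the wild-type construct at 0.73 ± 0.22, on opposite sides of scrambled sequence. At NRG1 site 6 the mutant stood at -0.18 (SE from 0.06 to 0.19) and the wild-type construct at 0.46 ± 0.14, and the range of that SE does not settle whether the mutant was below scrambled sequence. At NRG1 site 12 the mutant stood at -0.93 (SE at most 0.58), against 0.13 ± 0.38 for the wild-type construct. The 6 NRG1 mutants with both values had sums from -0.93 to 0.38, against -3.75 to 0.73 for their wild-type constructs.

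In the NRARP region the sum was highest at site 6, where the mutant stood at 1.50 (SE at most 0.40) and the wild-type construct at 1.42 ± 0.39, and the 2 estimates differ by the mutant effect of 0.08 ± 0.10. The mutants of sites 1, 4 and 5 stood at 0.17 (SE at most 0.13), 0.18 (SE at most 0.15) and 0.41 (SE at most 0.18), against -0.11 ± 0.09, -0.20 ± 0.11 and 0.05 ± 0.14 for the wild-type constructs. Site 3 was the only NRARP mutant with a sum below 0, at -0.33 (SE at most 0.10), against -0.19 ± 0.07 for its wild-type construct. The 7 NRARP mutants had sums from -0.33 to 1.50, against -0.20 to 1.42 for their wild-type constructs.

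The pairs of errors also bound which sequence carried the uncertainty, on the same assumption. At NRARP site 6 the mutant comparison had an SE of 0.10, so the wild-type sequence's own error was at most 0.10, and at least 93.5% of the squared error of the wild-type estimate of 1.42 ± 0.39 lay with the scrambled sequence. At NRARP site 7, by contrast, the wild-type comparison was the more precise, and at least 60.6% of the squared error of the mutant estimate lay with the mutant. At NRG1 site 10 the errors of 1.08 against scrambled sequence and 1.14 for the mutant were alike, and the same bound was 0% for the scrambled sequence and 9.61% for the mutant, which does not tell the sequences apart.

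Other regions whose nearest gene belongs to either pathway were few. Their counts of calls stand beside shares over all constructs of the authors' deposited tables of 34.1% higher and 28.2% lower for wild-type constructs, and 29.5% higher and 27.1% lower for mutants. The Notch list of 42 genes had 1 region beside that of NRARP, 2062 bp from EP300, the gene of an acetyltransferase that Notch transcription complexes recruit (chr22:41087514-41090530). Its 9 wild-type constructs gave 6 higher calls and 1 lower call per the authors' deposited table, the largest at 0.57 ± 0.07, or 1.77-fold. Of its 9 mutants, 2 were called higher and 4 lower per the authors' deposited table, from -0.26 ± 0.07 to 0.33 ± 0.09. The whole Notch list, NRARP included, had 16 wild-type constructs with 9 higher and 2 lower calls and 16 mutants with 5 higher and 4 lower calls per the authors' deposited table. Its median estimate was 0.15 for wild-type constructs and -0.01 for mutants, beside 0.01 and 0.02 over all constructs of the authors' deposited table. These wild-type figures include the NRARP region, which was selected on its wild-type estimates. The list covers 2 regions, so its constructs are not replicates of a pathway.

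The ERBB list of 39 genes had 1 region beside that of NRG1, inside RNF41, the gene of a ubiquitin ligase that lowers ERBB3 levels (chr12:56203449-56204444), with mutants only. Of 9 RNF41 mutants, 2 were called higher and 2 lower, beside 29.5% and 27.1% of all mutants per the authors' deposited table. They ranged from -2.25 ± 0.35, a 9.50-fold difference downward, to 0.49 ± 0.15, or 1.63-fold higher. The whole ERBB list, NRG1 included, had 17 mutants with 3 higher and 5 lower calls, a median of -0.16, and 10 wild-type constructs, all of the NRG1 region, per the authors' deposited table. No receptor gene and no Notch ligand gene of the lists was the nearest gene of a region.

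All of these calls depend on the model's error. The z values of the authors' deposited tables had a robust SD of 4.12 for wild-type constructs and 3.92 for mutants. When z was divided by that spread, 0 of the 16 calls in the 2 regions were kept. Over all constructs, 4 calls were kept among 358 wild-type constructs and 2 among 1025 mutants. That spread may hold true differences between constructs as well as error, and no replicate values were given to separate them. At an unadjusted p under 0.05 the regions held 10 of 17 wild-type and 8 of 15 mutant constructs, beside 231 of 358 and 625 of 1025 over all constructs per the authors' deposited tables.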

How the data were processed

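The analysis started from 2 tables of comparisons, with 1 row per construct and no values per sample. The estimate was deposited by the authors as the log odds ratio of a logit model, taken here as a natural log, per the file headers. Beside it the authors deposited the z value (a score), the p-value and the q-value of each construct. A two-sided normal test of z and its Benjamini-Hochberg adjustment over each table equalled the deposited columns. Bowtie2 and hg38 are named, without a role, per the submitters' processing notes. Read filters, barcodes per construct, construct length and placing, and the scrambled sequences were not given in the sources used here.

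Dividing an estimate by its z gave the SE, exponentiating its size gave the fold, and a 95% interval is the estimate with a normal multiple of its SE. The start in a construct's name was raised by 1 base. Genes are the nearest of the protein-coding genes of GRCh38.p14. Every construct of the 2 regions is named, and other regions only where their nearest gene is in a Notch or ERBB list. The members and lists were chosen with earlier results of these data known. TDRD9 and RAB6A are named only as the values beside the last rank. No position or base of a mutation and no sequence is printed. The adjustments were tested on simulated data with Python 3.11.15, numpy 2.4.6, pandas 2.3.3 and scipy 1.17.1. Alternatives were Bonferroni and Benjamini-Yekutieli adjustment, an adjusted p under 0.01, z scaled by its robust SD, and leaving out estimates beyond 10 in size.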

Additional observations from a re-analysis of the deposited data

How the results depend on the processing

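Of the 16 calls in both regions, 13 were left with Benjamini-Yekutieli adjustment and 13 at an adjusted p under 0.01, and 16 without estimates beyond 10 in size. Bonferroni adjustment left 3, which were 0 of 4 wild-type and 0 of 3 mutant calls at NRARP, and 1 of 5 wild-type and 2 of 4 mutant calls at NRG1 (site 3 wild-type, sites 5 and 6 mutant), beside 120 of 223 wild-type and 306 of 580 mutant calls over all constructs. With z scaled by its robust SD, 0 were left at NRARP and 0 at NRG1 in either table, beside 4 wild-type and 2 mutant calls over all constructs. The calls that Benjamini-Yekutieli adjustment and the stricter threshold ended were the same 3, NRARP site 3 and NRG1 site 8 in the wild-type table and NRG1 site 12 in the mutant table. No direction changes under these alternatives, since they alter only the p-value. The spans without NRARP site 6 (0.54) and without NRG1 site 10 (1.79 wild-type, 1.57 mutant) were chosen after seeing the data. No paired analysis was possible because the tables hold 1 estimate per construct and no replicate columns, and leaving out a replicate was not possible for the same reason. The depth per construct is unknown, and the size of the SE is the only measure of precision.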

Other observations

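Differences between nearby sites are given here without a comparison to sites further apart. Among neighbouring sites at most 25 bp apart, with estimates of at most 10 in size, 5 pairs of NRARP wild-type constructs differed by 0.01 to 1.37, with a median of 0.53, where 87 such pairs over all regions had a median difference of 0.46. The widest NRARP pair, sites 5 and 6, holds the value through which the region was selected. On the assumption of a shared wild-type construct, at least 93.5% of the squared error of the site 6 estimate lay with the scrambled sequence. The sign was the same in 3 of the 5 NRARP pairs, beside 49.4% of the 87. For mutants, the 5 NRARP pairs differed by 0.15 to 0.52, with a median of 0.27, beside 0.44 over 278 pairs, and the sign was the same in 2 of 5, beside 50.0%. Pairs share a region and may share most of their sequence, and the length of the constructs is not given in the sources used here, so these are descriptions without a test.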
